A study of Mus musculus with 4 samples.

Results

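The genes examined encode the DNA replication machinery, the proteins that license origins, unwind the template, copy it and supply its nucleotides. They were chosen by name from the deposited gene table, and all 50 named genes were found once each among its 52636 gene IDs. Of the 4 RNA-seq libraries of mouse cells, 2 were labelled E4BP4-cKO, an E4BP4 conditional knockout, and 2 were labelled wild-type. Nfil3 is the gene of E4BP4, a transcription factor. All 4 came from spleen naive CD4+ T cells of C57BL/6 mice, cultured for 3 days toward the T follicular helper (Tfh) state, the helper T cells that support B cells in germinal centres. Every culture received the cytokines IL-6 (10 ng/ml) and IL-21 (10 ng/ml). Blocking antibodies were added against IFN-γ (10 µg/ml), IL-4 (10 µg/ml) and TGF-β (20 µg/ml). Not given in the sources used here were the Cre driver, the deleted part of the gene, the age and sex of the mice, and whether replicates were different animals. The p-values therefore measure the spread between these libraries.

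Replication starts when the origin recognition complex marks origins and Cdc6 and Cdt1 load the ring-shaped MCM2-7 helicase onto them, a step called licensing. In S phase Cdc45 and the GINS complex switch the helicase on, polymerase alpha with its primase lays down primers, and polymerases delta and epsilon extend them on a sliding clamp that the RFC clamp loader places on DNA. Many of these genes are transcribed before and during S phase under the E2F transcription factors, and activated CD4 T cells divide rapidly, so their RNA is abundant in cultures of dividing T cells.

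The libraries held between 19057077 and 26579592 counts. Nfil3 itself was read 4649 and 3965 times under the E4BP4-cKO label and 290 and 377 times in those labelled wild-type, against the direction the labels lead one to look for (log2 fold change 3.81 with an SE of 0.15, adjusted p = 0.00396). Groups are therefore called by their labels, and the directions given describe these labelled libraries, not what loss of E4BP4 does. Defining T cell genes such as Cd3e (173 and 240.0 against 219 and 203 CPM) and Cd4 were present in all 4 libraries, and 0 of 10 T cell markers were called by edgeR, while DESeq2 called Cd5 lower and Thy1 higher. Without overlap between groups, 4 of the 10 (Cd3d, Cd3g, Cd4 and Thy1) stood higher under the E4BP4-cKO label and 3 (Cd5, Cd28 and Lck) lower. Of all genes tested, 34.6% and 33.6% did so. Thy1, which limma-voom also called higher, stood at 688 and 1192 against 257 and 436 CPM. The 8 Tfh markers were read in each library, and edgeR called 1, Icos, as higher, while DESeq2 called Icos and Maf higher and Pdcd1 and Cd200 lower. The shares of all genes tested that were called lower and higher were 6.53% and 7.68% in edgeR and 11% and 12.1% in DESeq2. Xist was read 1 and 21517 times against 28571 and 17, and the Y-linked gene Ddx3y was read 1592 times in wild-type replicate 2 and 0 times elsewhere, so the replicates of a group differed in sex-linked RNA and were not repeat measurements of 1 RNA sample. Throughout, values are given first for E4BP4-cKO replicates 1 and 2 and then for wild-type replicates 1 and 2. The unit is CPM (counts relative to the library's total, after TMM scaling) unless TPM is named.

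Promoter stretches that hold E2F words are shown, because these words were found in a larger share of the replication genes than of all genes. RefSeq promoter windows on GRCm38.p6, from 250 bases before to 50 after an annotated start, were matched by symbol to 41 of the 50 genes. Ccne2, Gins1, Gins2, Gins4, Gmnn, Mcm4, Pole, Prim2 and Rfc2 had no entry. The words searched on both strands were TTTCCCGC, TTTGGCGC, TTTCGCGC and TTTGCCGC, forms of the E2F motif, which can overlap each other. At least 1 of them stood in the windows of 15 of the 41 genes (36.6%), against 4.61% of the 10574 tested genes with a window and 2.6% of all 27025 genes with one. Shown are the 4 genes with 1 window that were called lower and hold an E2F word between bases -170 and -6 from the start, with the words in capitals, 5′ to 3′ on the gene's strand.
Cdc6, chr11:98907981-98908145, plus strand: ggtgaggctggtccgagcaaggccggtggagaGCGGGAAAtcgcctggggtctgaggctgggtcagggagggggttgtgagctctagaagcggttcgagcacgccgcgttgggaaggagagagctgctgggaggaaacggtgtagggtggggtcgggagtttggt
Mcm5, chr8:75109339-75109503, plus strand: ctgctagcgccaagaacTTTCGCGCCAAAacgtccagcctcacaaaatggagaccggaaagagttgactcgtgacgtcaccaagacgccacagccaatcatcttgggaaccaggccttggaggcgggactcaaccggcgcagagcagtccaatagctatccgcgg
Mcm6, chr1:128359711-128359875, minus strand: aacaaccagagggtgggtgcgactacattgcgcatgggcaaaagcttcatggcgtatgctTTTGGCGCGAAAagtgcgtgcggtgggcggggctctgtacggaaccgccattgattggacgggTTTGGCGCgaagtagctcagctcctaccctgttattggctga
Pola1, chrX:93632161-93632325, minus strand: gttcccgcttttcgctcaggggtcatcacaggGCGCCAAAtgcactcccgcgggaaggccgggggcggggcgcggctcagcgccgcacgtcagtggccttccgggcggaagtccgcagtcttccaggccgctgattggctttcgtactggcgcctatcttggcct
In Mcm5, and at the upstream position in Mcm6, 2 words on opposite strands overlapped in 1 run of capitals. The Cdc6 stretch lies inside the gene as the deposited table spans it, since that span begins upstream of the RefSeq start used here.

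**Figure D1:**
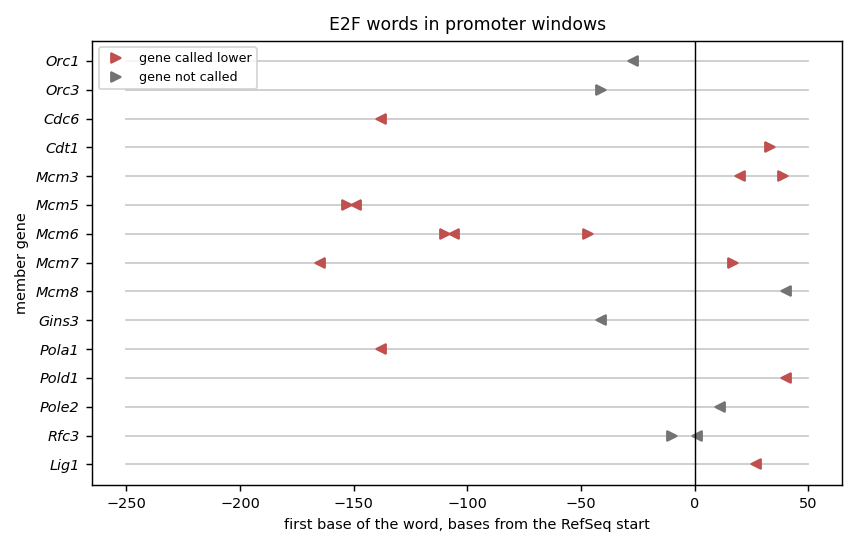
Positions of E2F words in the promoter windows of the 15 members that hold one. The x axis is the first base of the word in bases from the RefSeq start, each row is a gene, right-pointing marks are words as spelled in the text and left-pointing marks their reverse complement, and red marks are genes called lower. Words lie on both sides of the start, and both called and uncalled genes hold them.

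The 15 genes with an E2F word were Orc1, Orc3, Cdc6, Cdt1, Mcm3, Mcm5, Mcm6, Mcm7, Mcm8, Gins3, Pola1, Pold1, Pole2, Rfc3 and Lig1. They made up 9 of the 27 members called lower that had a window (33.3%) and 6 of the 14 not called (42.9%). The NF-Y word CCAAT stood in the windows of 25 of 41 members (61%) and of 42.3% of tested genes. The word TTTGAA of the cell cycle homology region, which is known from promoters of mitotic genes, stood in 5 of 41 (12.2%) and in 14.5% of tested genes. The D-box words TTATGTAA and TTACGTAA, the form that E4BP4 is known to bind, stood in 0 of 41 and in 0.823% of tested genes. These matches describe letters in fixed windows and are not measured binding.

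As a group, the replication genes had lower levels in both libraries with the E4BP4-cKO label. Of the 50 members, all of which passed the filter on low counts, 32 were lower and 0 higher at an adjusted p under 0.05 in edgeR, where 6.53% of the 15503 genes tested were called lower and 7.68% higher. At an unadjusted p under 0.05, 45 members were lower and 0 higher, where 17.1% and 18.6% of all genes tested were. DESeq2 called 39 lower and 0 higher (background 11% and 12.1%). These shares of all genes tested are also the background for the calls by class below. The sign was negative in 48 of 50, and in 48.2% of all genes tested. The median log2 fold change of the members, E4BP4-cKO over wild-type, was -0.81, and that of all genes tested was 0.02. In 48 members both libraries labelled E4BP4-cKO lay below both labelled wild-type, which held for 33.6% of all genes tested, and the 2 exceptions were Orc3, which lay above without overlap (background 34.6%), and Orc4. Summed over the 50 genes, the level was 3180.0 and 2886 against 6086 and 4883 CPM, so the group means stood at 55.3% of wild-type, and single pairs of libraries between 47.4% and 65.1%. These genes took 0.311% and 0.277% of all counts against 0.618% and 0.509%. In bulk RNA a smaller share of cells in S phase and less RNA per cell cannot be told apart.

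The calls rested on the replicates. Without E4BP4-cKO replicate 2, 0 members were called lower (background 0.449%), and the median log2 fold change of the members tested was -0.726. Without wild-type replicate 1, 6 were called, namely Cdt1, Mcm2, Rpa2, Rrm2, Tk1 and Chaf1a (background 1.06%), with a median of -0.674. The number was 24 without E4BP4-cKO replicate 1 (background 4.7%) and 32 without wild-type replicate 2 (background 4.98%). The wild-type pair differed among themselves in these genes: replicate 1 stood above replicate 2 in 46 of 50 members, with a median log2 ratio of 0.30, where 54.9% of all genes tested did so. Among the libraries labelled E4BP4-cKO, replicate 1 stood above replicate 2 in 39 of 50, with a median log2 ratio of 0.13 and a background of 49.7%.

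**Figure D2:**
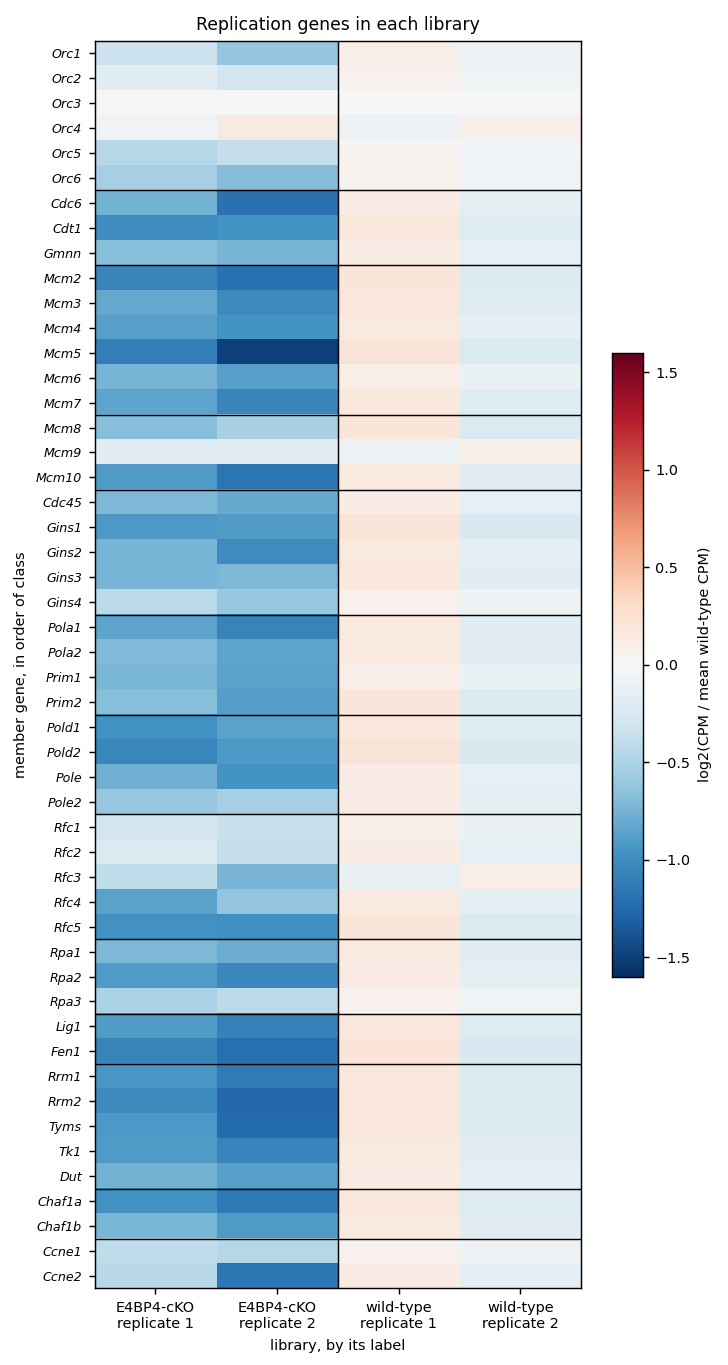
Level of each of the 50 members in each library, as log2 of CPM over the mean wild-type CPM of that gene (colour), with genes in rows by class and libraries in columns by label. Both E4BP4-cKO columns are blue in nearly all rows, Orc3 and Orc4 are pale throughout, and wild-type replicate 1 is above replicate 2 in 46 of 50 rows.

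The origin recognition complex was the class nearest to the wild-type level. Its 6 genes summed to 182 and 178 against 216 and 209 CPM (84.6% of the wild-type mean), and 1 of 6, Orc6, was called lower. Orc6, the smallest subunit, stood at 31.1 and 27.8 against 47.1 and 43.2 CPM (log2 fold change -0.61 with an SE of 0.13, adjusted p = 0.0392) and lost its call without wild-type replicate 2, as well as without wild-type replicate 1 or E4BP4-cKO replicate 2. Orc1, the subunit that varies through the cell cycle in mammals, stood at 14.2 and 11.8 against 19.3 and 16.9 CPM (log2 fold change -0.48 with an SE of 0.19, adjusted p = 0.134). The groups did not overlap for either gene (background 33.6%). Orc5, an ATP-binding subunit, stood at 19.6 and 20.5 against 27.5 and 26.1 CPM (log2 fold change -0.42, adjusted p = 0.0957), and Orc2, a core subunit, at 37.6 and 34.7 against 44.9 and 40.8 CPM (log2 fold change -0.24, adjusted p = 0.211). For Orc2, 29.8% of the exon bases are shared with Nif3l1 on the other strand. The core subunit gene Orc3 (chr4:34570796-34614944, minus strand) stood at 50.6 and 50.5 against 49.9 and 50.3 CPM (log2 fold change 0.01, SE 0.10), and Orc4 at 28.4 and 32.4 against 27.6 and 31.2 CPM (log2 fold change 0.05, SE 0.15). Their differences were smaller than their standard errors, and both turned slightly negative under scaling to total library size.

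Helicase loading factors and the inhibitor of loading were lower together. All 3 genes were called, with a median log2 fold change of -0.95, and summed to 117 and 106 against 231 and 185 CPM (53.7%). Cdt1, which brings MCM2-7 to origins, stood at 43.8 and 45.04 against 98.9 and 75.2 CPM (log2 fold change -0.97 with an SE of 0.15, adjusted p = 0.0288). Cdc6, the ATPase that works with it (chr11:98907801-98923940, plus strand), stood at 40.7 and 29.97 against 75.2 and 61.8 CPM (log2 fold change -0.95 with an SE of 0.19, adjusted p = 0.0369). Geminin, encoded by Gmnn, binds Cdt1 and blocks a further round of loading, and its gene stood at 32.6 and 31.3 against 56.8 and 48.1 CPM (log2 fold change -0.71 with an SE of 0.13, adjusted p = 0.0331). In each of the 3 genes every library labelled E4BP4-cKO was below every library labelled wild-type (background 33.6%). The ratio of Cdt1 to Gmnn in CPM was 1.34 and 1.44 against 1.74 and 1.56.

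All subunits of the MCM2-7 helicase were lower. The 6 genes were each called (adjusted p from 0.0274 to 0.0341), with log2 fold changes from -1.28 to -0.80, and their summed level was 976 and 855 against 2032 and 1595 CPM (50.5%). Mcm5 (chr8:75109569-75128439, plus strand), which sits at the gate of the ring, had the largest change of all 50 members, at 156 and 118 against 384 and 284 CPM (log2 fold change -1.28 with an SE of 0.21, adjusted p = 0.0299). Mcm2 (chr6:88883474-88898780, minus strand), the subunit on the other side of that gate, stood at 133 and 120.5 against 315 and 237 CPM (log2 fold change -1.12, SE 0.17). For both genes the lower wild-type library stood well above the higher of the other pair, by factors of 1.82 and 1.78. The smallest change of the 6 was that of Mcm6 (chr1:128331590-128359664, minus strand), at 219.5 and 202 against 394 and 342 CPM (log2 fold change -0.80, SE 0.13). Mcm4, a subunit of the catalytic core, stood at 124 and 117 against 251 and 203 CPM (log2 fold change -0.91, SE 0.14), Mcm3 at 192 and 167 against 381 and 293 CPM and Mcm7 at 151 and 129.9 against 306 and 236 CPM. Mcm5 relative to Mcm6 was 0.709 and 0.584 against 0.973 and 0.83 in CPM, so the subunits did not keep one ratio across libraries. Of the Mcm7 exon bases, 12.6% are shared with other genes, and 16.5% of its 50-base stretches also occur in the processed pseudogene Gm5487, so part of its count is uncertain.

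MCM relatives outside the ring divided. Mcm10, which helps to start the helicase and to hold polymerase alpha, was called lower, at 40.2 and 33.6 against 84.2 and 66.9 CPM (log2 fold change -1.03 with an SE of 0.16, adjusted p = 0.0286). Mcm8 and Mcm9 form a separate helicase with a known role in homologous recombination. Mcm8 stood at 10.7 and 12.1 against 19.7 and 14.7 CPM (log2 fold change -0.60, adjusted p = 0.113) and Mcm9 at 20.96 and 20.9 against 22.1 and 24.9 CPM (log2 fold change -0.17, adjusted p = 0.454). Neither was called, and 19.2% of the Mcm9 exon bases are shared with Asf1a on the other strand.

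Partners that activate the helicase were lower in every library labelled E4BP4-cKO, with a mixed outcome of the test. The 5 genes summed to 131 and 120.5 against 226 and 189 CPM (60.6%), and 2 of 5 were called. Cdc45 stood at 44.9 and 42.4 against 80.6 and 67.7 CPM (log2 fold change -0.76 with an SE of 0.13, adjusted p = 0.0301) and the GINS subunit gene Gins2 at 23.8 and 19.8 against 43.8 and 35.6 CPM (log2 fold change -0.87 with an SE of 0.17, adjusted p = 0.0375). For Gins2, 67.3% of the exon bases are shared with Gse1 on the other strand, which stood at 116 and 107 against 113 and 92.1 CPM. The other subunits lay just outside the threshold: Gins1 at 9.38 and 9.61 against 20.5 and 15.03 CPM (log2 fold change -0.90 with an SE of 0.22, adjusted p = 0.0503), Gins4 at 40.3 and 35.8 against 57.3 and 51.5 CPM (log2 fold change -0.52 with an SE of 0.12, adjusted p = 0.0513) and Gins3 at 12.8 and 13.1 against 24.1 and 18.9 CPM (log2 fold change -0.73 with an SE of 0.19, adjusted p = 0.0559). DESeq2 called all 3, and Gins1 was called under several other alternatives, among them leaving out wild-type replicate 2. The 5 genes did not overlap between groups (background 33.6%).

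Polymerase genes were lower by a similar amount in both polymerase classes. Of the 8 genes, 7 were called, and together they summed to 410.4 and 398 against 820.4 and 650.5 CPM (54.9%). In the polymerase alpha and primase complex, which starts each new strand, all 4 were called lower (median log2 fold change -0.79). Its catalytic subunit gene Pola1 (chrX:93304767-93632155, minus strand) stood at 33.6 and 28.9 against 67.5 and 53.5 CPM (log2 fold change -0.95, SE 0.16) and the primase gene Prim1 at 46.5 and 42.7 against 83.2 and 71.7 CPM (log2 fold change -0.79, SE 0.12). The regulatory subunit gene Pola2 stood at 63.4 and 57.4 against 115 and 91.2 CPM, and the large primase subunit gene Prim2, with the weakest call of the 32 (adjusted p = 0.0471 in edgeR, and from 4.07e-05 to 0.166 over the 12 alternatives), at 29.9 and 26.1 against 54.99 and 41.2 CPM.

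Among the elongating polymerases, Pold1, the catalytic subunit of polymerase delta, stood at 111 and 120.4 against 245 and 191 CPM (log2 fold change -0.91, SE 0.15) and its partner Pold2 at 45.3 and 49.5 against 108 and 79.04 CPM (log2 fold change -0.98, SE 0.17). The catalytic subunit gene of polymerase epsilon, Pole, stood at 68.4 and 59.6 against 126 and 106 CPM (log2 fold change -0.86, SE 0.14). These 3 were called, with adjusted p from 0.0288 to 0.0313. The second epsilon subunit gene, Pole2, had low levels, at 12.2 and 12.8 against 20.2 and 16.7 CPM, and was not called (log2 fold change -0.57 with an SE of 0.18, adjusted p = 0.0888). Its groups did not overlap (background 33.6%). Unlike most members, Pold1, Pold2 and Pole2 stood a little higher in E4BP4-cKO replicate 2 than in replicate 1.

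The clamp loader genes were nearer to the wild-type level than the polymerase genes. Of the 5, edgeR called 1 and DESeq2 called 3 (Rfc3, Rfc4 and Rfc5), where 6.53% and 11% of all genes tested were lower. The summed level was 308 and 285 against 443 and 386 CPM, or 71.6% of wild-type. Rfc5 (chr5:117378103-117389047, minus strand) stood at 38.4 and 37.99 against 85.9 and 63.9 CPM (log2 fold change -0.97 with an SE of 0.16, adjusted p = 0.0301). The large subunit gene Rfc1 stood at 87.2 and 83.1 against 114 and 98.8 CPM (log2 fold change -0.32 with an SE of 0.11, adjusted p = 0.111) and Rfc2, one of the small subunit genes, at 117 and 106 against 150.1 and 126 CPM (log2 fold change -0.31 with an SE of 0.13, adjusted p = 0.159). In both genes the groups did not overlap (background 33.6%), and the differences were under 3 standard errors. Rfc3 stood at 49.6 and 39.4 against 60.8 and 71.2 CPM (log2 fold change -0.57 with an SE of 0.16, adjusted p = 0.0658) and Rfc4 at 16.2 and 19.0 against 32.4 and 26.4 CPM (log2 fold change -0.74 with an SE of 0.18, adjusted p = 0.0501), and Rfc4 was called under several alternatives, among them DESeq2 and limma-voom. Rfc3 was 1 of 4 members in which wild-type replicate 2 was above replicate 1. The ratio of Rfc5 to Rfc1 in CPM was 0.441 and 0.457 against 0.754 and 0.647. Exon bases shared with genes on the other strand were 15.1% for Rfc2 (Lat2), 12.7% for Rfc4 (Eif4a2) and 10.7% for Rfc5 (Wsb2). Part of these counts is therefore uncertain.

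RPA, the complex that coats single-stranded DNA, summed to 208 and 199 against 381 and 312 CPM (58.7%). Rpa2, the subunit that is phosphorylated upon damage, had the lowest p of all 50 members, at 48.1 and 44.4 against 98.8 and 81.9 CPM (log2 fold change -0.97 with an SE of 0.13, adjusted p = 0.0244). The large DNA-binding subunit gene Rpa1 was also called, at 132 and 125 against 240.5 and 192 CPM (log2 fold change -0.75 with an SE of 0.14, adjusted p = 0.0349). Rpa3, the smallest subunit gene, stood at 28.3 and 29.9 against 41.9 and 38.3 CPM and was not called by edgeR (log2 fold change -0.46 with an SE of 0.12, adjusted p = 0.0621), while DESeq2 called it lower (adjusted p = 0.035). Processing of Okazaki fragments, the short pieces of the lagging strand, was represented by the ligase gene Lig1, at 108 and 95.5 against 228 and 175 CPM (log2 fold change -0.99 with an SE of 0.16, adjusted p = 0.03), and the flap nuclease gene Fen1. Fen1 (chr19:10199132-10204169, minus strand) stood at 6.77 and 6.17 against 16.4 and 12.01 CPM (log2 fold change -1.13 with an SE of 0.24, adjusted p = 0.0396). Of its exon bases 84.2% are shared with Gm10143 and Tmem258 on the other strand, so the deposited count of Fen1 is uncertain. Tmem258 stood at 77.3 and 89.2 against 65.6 and 65.1 CPM, and Gm10143 was read between 11 and 20 times a library.

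Enzymes of nucleotide supply had the lowest summed level relative to wild-type among the 13 classes, at 500.3 and 437 against 1074 and 828 CPM (49.3%). Okazaki fragment joining (50.15%), CAF-1 (50.45%) and MCM2-7 (50.49%) lay close to it. By median log2 fold change Okazaki fragment joining was lower still (-1.059), so nucleotide supply does not stand apart from these classes. All 5 nucleotide supply genes were called lower (adjusted p from 0.0272 to 0.0304), with a median log2 fold change of -1.03. Rrm2, the regulated subunit of ribonucleotide reductase, which makes deoxyribonucleotides, stood at 146 and 124 against 336 and 254 CPM (log2 fold change -1.13, SE 0.18). Its large subunit gene Rrm1 stood at 169 and 147 against 367 and 278 CPM (log2 fold change -1.03, SE 0.17), and Rrm2 over Rrm1 was 0.863 and 0.842 against 0.914 and 0.913 in CPM. The thymidine kinase gene Tk1, of the salvage route to thymidine nucleotides, stood at 60.2 and 54.3 against 126 and 100.2 CPM (log2 fold change -0.98, SE 0.15). Tyms, the thymidylate synthase gene, stood at 38.9 and 31.6 against 83.98 and 63.5 CPM (log2 fold change -1.06, SE 0.18). Dut, whose product removes dUTP, stood at 86.6 and 80.3 against 161 and 132 CPM (log2 fold change -0.81, SE 0.13). In each of the 5 genes replicate 1 was above replicate 2 in both groups, and the groups did not overlap (background 33.6%).

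CAF-1 places histones behind the fork, and both subunit genes measured were called lower. Chaf1a stood at 64.3 and 56.8 against 143 and 109 CPM (log2 fold change -1.06 with an SE of 0.16, adjusted p = 0.0276). In GENCODE M21 it overlaps Ubxn6 on the other strand, which stood at 87.9 and 96.4 against 71.6 and 75.4 CPM, but that model of Chaf1a differs from the deposited one, so no share of overlap is given. Chaf1b stood at 29.2 and 25.9 against 54.2 and 43.2 CPM (log2 fold change -0.82 with an SE of 0.16, adjusted p = 0.0356). The E-type cyclin genes, whose products drive entry into S phase with Cdk2, were not called by edgeR, and DESeq2 called Ccne1 lower (adjusted p = 0.0293). The cyclin E class summed to 69.24% of wild-type, close to the clamp loader (71.58%). Ccne1 stood at 45.6 and 44.0 against 63.7 and 57.5 CPM (log2 fold change -0.44 with an SE of 0.11, adjusted p = 0.0553) and Ccne2 at 20.7 and 12.6 against 30.8 and 25.4 CPM (log2 fold change -0.75 with an SE of 0.27, adjusted p = 0.113). For Ccne2, 17.4% of the exon bases are shared with Ints8 on the other strand. Ccne2 was called without E4BP4-cKO replicate 1, in which it was at 20.7 CPM against 12.6 in replicate 2.

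**Figure D3:**
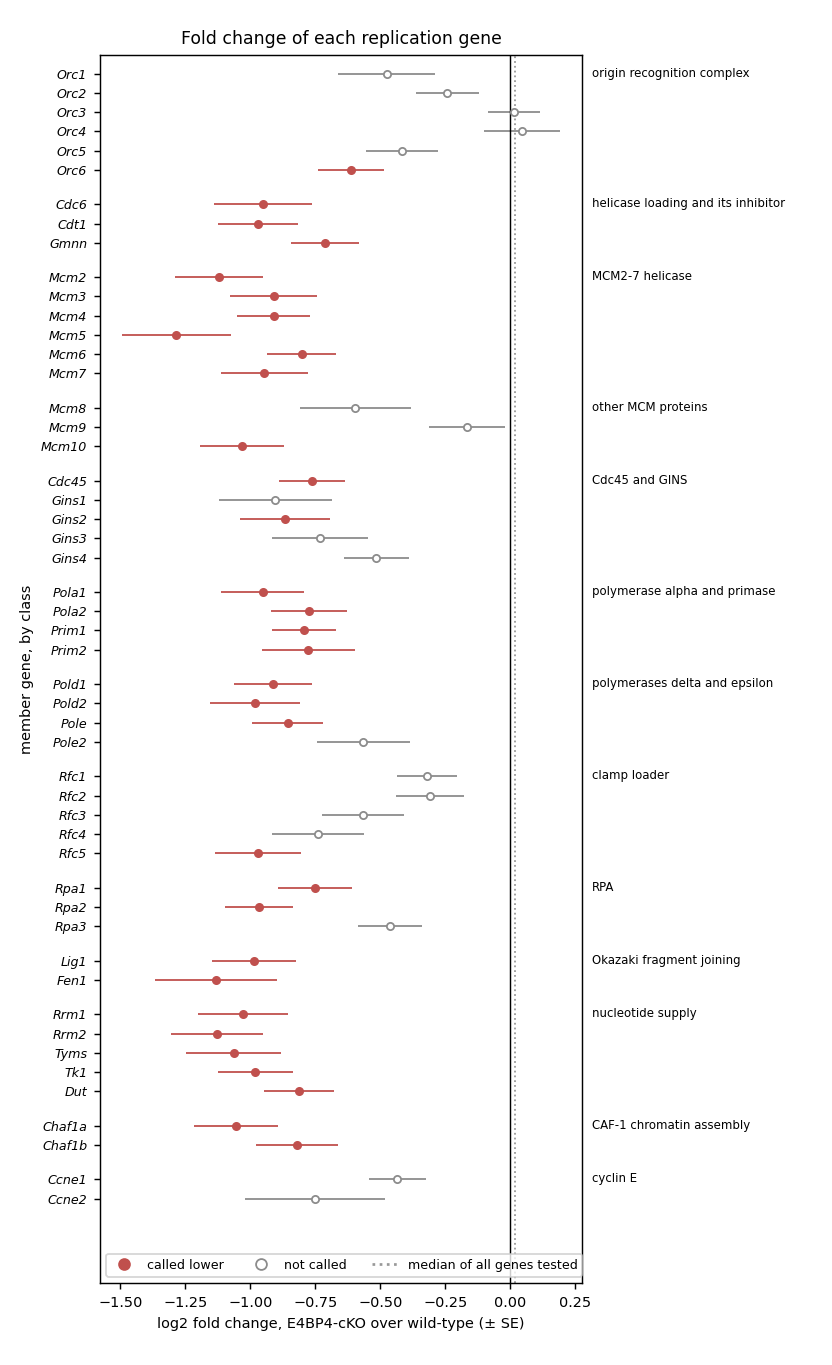
Log2 fold change of each member, E4BP4-cKO over wild-type (x axis, points with bars of ± SE derived from the edgeR F statistic, 2 libraries a group), by class. Filled red points are the 32 genes called lower, open grey points the 18 not called, and the dotted line is the median of all genes tested; the uncalled points include 5 of 6 origin recognition genes and 4 of 5 clamp loader genes.

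Set side by side, licensing (origin recognition, loading and MCM2-7) summed to 54.03% of wild-type and the polymerases to 54.93%. Nucleotide supply stood at 49.3% and the clamp loader at 71.58%. Single pairs of libraries ran from 45.96% to 64.09% for licensing, 48.45% to 63.1% for the polymerases and 40.71% to 60.44% for nucleotide supply. These ranges overlapped, and that of the clamp loader lay above them, from 64.32% to 79.91%. Relative to the origin recognition complex, the summed MCM2-7 level was 5.37 and 4.81 against 9.39 and 7.65. The summed nucleotide supply genes relative to the clamp loader were 1.62 and 1.53 against 2.42 and 2.14, and the polymerases relative to the clamp loader 1.33 and 1.39 against 1.85 and 1.69. For these 3 ratios both libraries labelled E4BP4-cKO lay below both labelled wild-type. MCM2-7 relative to nucleotide supply was 1.95 and 1.96 against 1.89 and 1.93, a narrow range in all 4 libraries. Here both libraries labelled E4BP4-cKO lay slightly above both labelled wild-type. MCM2-7 relative to the polymerases was 2.38 and 2.15 against 2.48 and 2.45, lower without overlap. With 2 libraries on each side, 0.333 is the smallest two-sided p an exact permutation test can give, so the differences between classes are given as values without a test.

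**Figure D4:**
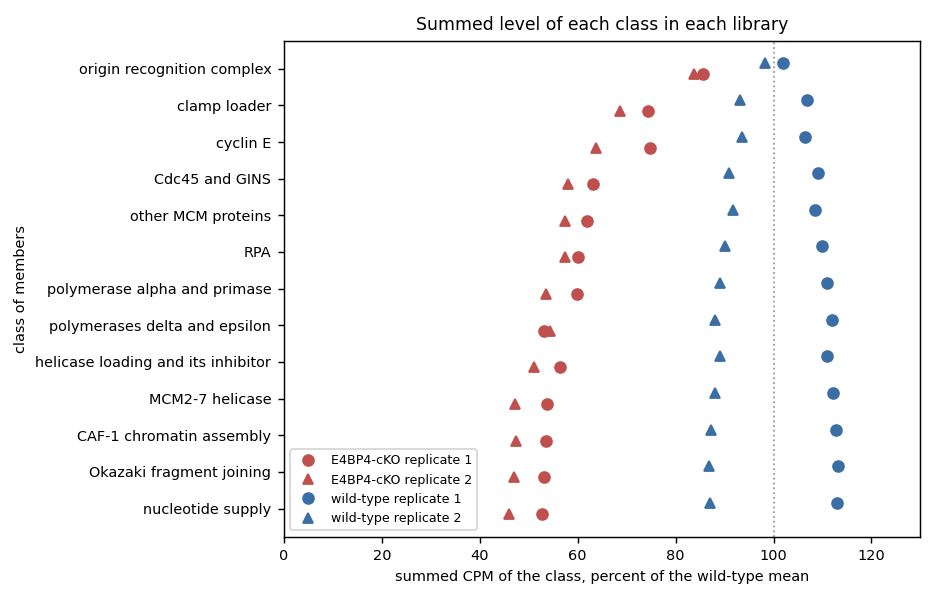
Summed CPM of each of the 13 classes in each library (x axis, percent of the mean of the 2 wild-type libraries), with circles for replicate 1 and triangles for replicate 2. The E4BP4-cKO libraries lie left of the wild-type libraries in each class. They are nearest for the origin recognition complex (mean 84.6%), then for the clamp loader (71.6%) and cyclin E (69.24%), and farthest for nucleotide supply (49.3%). Okazaki fragment joining (50.15%), CAF-1 (50.45%) and MCM2-7 (50.49%) lie close to nucleotide supply.

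Levels were compared between genes per length, in TPM (counts per base of gene length, scaled to the same sum in each library). Orders between genes therefore depend on the length used, which for Cdc45 was 2252 deposited bases against 3506 exon bases in GENCODE M21. The gap was larger for Pola2 (2872 against 8294) and Chaf1a (3308 against 8854), whose deposited coordinates differ from those of GENCODE M21. In the libraries labelled wild-type, Rrm2 had the highest level of the 50, at 334 ± 58.9 TPM, and Mcm9 the lowest, at 8.12 ± 0.836 TPM (mean ± SD, n = 2). Within MCM2-7, whose proteins assemble in equal number, Mcm3 had the highest and Mcm2 the lowest TPM in all 4 libraries. The highest was 2.67 and 2.57 times the lowest under the E4BP4-cKO label, against 2.24 and 2.29 times under the wild-type label. These ranks and ratios rest on the deposited lengths, 6956 bases for Mcm2 and 3752 for Mcm3. In CPM, which takes no account of length, Mcm2 stood above Mcm4 in all 4 libraries. The clamp loader genes had wild-type levels close to each other, from 50.3 ± 9.44 TPM for Rfc5 over 55.5 ± 4.46 TPM for Rfc1, 57.5 ± 7.58 TPM for Rfc3 and 60.2 ± 7.54 TPM for Rfc4 to 68.7 ± 7.26 TPM for Rfc2, and neighbours in that order did not differ beyond their spread. In the other libraries they ran from 23.1 ± 0.603 TPM for Rfc5 to 49.9 ± 4.57 TPM for Rfc2. Among origin recognition genes wild-type levels ran from 12.4 ± 1.33 TPM for Orc4 to 57.5 ± 2.33 TPM for Orc6. Fen1 was listed at 18.4 ± 3.67 TPM and Lig1 at 148 ± 24.4 TPM, with the overlap of Fen1 given above.

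**Figure D5:**
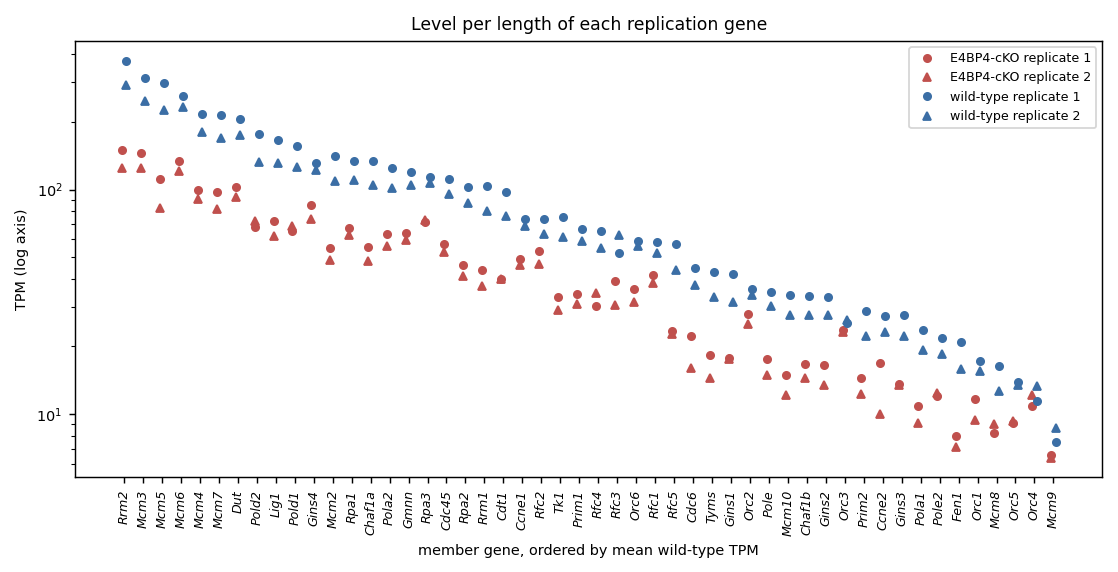
Level per length of each member in each library (y axis, TPM on a log axis), ordered by the mean wild-type TPM, with colours for the label and shapes for the replicate. Rrm2 and the MCM2-7 genes other than Mcm2 fill the top of the order, and Orc4, Orc5, Mcm8 and Mcm9 its end.

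Other genes of replication, taken from a separate list of 37, were lower in the same libraries in part. Of the 37, 21 were called lower and 0 higher by edgeR (at an unadjusted p under 0.05, 30 were lower and 3 higher), and DESeq2 called 28 lower and 3 higher. Of all genes tested, edgeR called 6.53% lower and 7.68% higher (unadjusted 17.1% and 18.6%), and DESeq2 11% and 12.1%. The median log2 fold change was -0.75. Leaving out E4BP4-cKO replicate 2 brought the lower genes to 0, and leaving out wild-type replicate 1 to 5. The genes with the lowest p were Clspn, a fork protection and checkpoint adaptor gene, at 57.95 and 53.7 against 135 and 109 CPM (log2 fold change -1.13 with an SE of 0.14, adjusted p = 0.0218), and Timeless, its partner at the fork, at 43.1 and 41.1 against 87.6 and 74.2 CPM (log2 fold change -0.94, SE 0.12). Uhrf1, which guides maintenance of DNA methylation behind the fork, stood at 183 and 157 against 419 and 337 CPM (log2 fold change -1.15, SE 0.16), and the histone chaperone gene Asf1b at 34.5 and 33.4 against 90.2 and 64.8 CPM (log2 fold change -1.19, SE 0.18). Pcna, which encodes the sliding clamp, stood at 272 and 249 against 375 and 351 CPM and was not called by edgeR (log2 fold change -0.48 with an SE of 0.12, adjusted p = 0.0547). DESeq2 (adjusted p = 0.00243) and limma-voom (adjusted p = 0.0485) called Pcna lower.

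Against the direction of the rest, 3 genes had higher values in both libraries labelled E4BP4-cKO, and were chosen for mention after their values were seen. Samhd1, whose product breaks down deoxyribonucleotides, stood at 787 and 945 against 462 and 633 CPM (log2 fold change 0.66 with an SE of 0.20, adjusted p = 0.0793). Rrm2b, the p53-inducible form of the small subunit of ribonucleotide reductase, stood at 20.6 and 25.8 against 14.1 and 14.7 CPM (log2 fold change 0.68 with an SE of 0.18, adjusted p = 0.0587), opposite in sign to Rrm2. Pold4, the smallest subunit gene of polymerase delta, stood at 97.2 and 168 against 65.05 and 70.9 CPM (log2 fold change 0.96 with an SE of 0.26, adjusted p = 0.0642). None of the 3 was called by edgeR in the setting used throughout, while DESeq2 called each of them. With a replicate block, edgeR called Pold4 (adjusted p = 0.0461) and Samhd1 (adjusted p = 0.0393) higher, as it did 8.87% of all genes tested.

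Mitotic genes and the E2F family give the nearest comparisons. Of 20 mitotic genes, edgeR called 18 lower and 0 higher, where 6.53% and 7.68% of all genes tested were. Their median log2 fold change was -1.01 against -0.81 for the replication genes, and they summed to 1731 and 1952 against 4070.0 and 3007 CPM. The difference between these lists was not tested. Of 13 genes of E2F factors, their partners and pocket proteins, edgeR called 7 lower and 1 higher, beside the same shares of all genes. E2f7, a repressor of the family, stood at 14.6 and 11.5 against 43.3 and 31.4 CPM (log2 fold change -1.52 with an SE of 0.22, adjusted p = 0.027), and the activator genes E2f1 and E2f2 at 49.4 and 44.5 against 86.1 and 68.9 CPM and at 88.1 and 96.5 against 182 and 149 CPM. The gene that was higher was Rbl2, which encodes the pocket protein p130 of resting cells, at 134 and 164 against 75.8 and 95.1 CPM (log2 fold change 0.80 with an SE of 0.17, adjusted p = 0.0391). Its call was lost when either wild-type replicate 1 or E4BP4-cKO replicate 2 was left out.

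Markers of other cell types also differed between the labels. Every B cell marker on the list was lower, and every mast cell, basophil and myeloid marker higher, in both libraries labelled E4BP4-cKO, without overlap. Of all genes tested, 33.6% lay lower and 34.6% higher without overlap. For the calls below, edgeR called 6.53% of all genes tested lower and 7.68% higher, and DESeq2 11% and 12.1%. The share that limma-voom called higher was 7.95%. All 8 B cell markers were read in every library and summed to 81.2 and 39.03 against 382 and 377 CPM, and edgeR called 2 of 8, Ighm and Igkc, lower (DESeq2 called 4). The 8 mast cell and basophil markers summed to 1905 and 1439 against 494 and 102 CPM, with 3 of 8 called higher by edgeR, 6 by DESeq2 and 7 by limma-voom. The 8 myeloid markers summed to 290.4 and 204 against 50.2 and 17.7 CPM, with 6 of 8 called higher by edgeR and by DESeq2. The CD8 and NK list summed to 467 and 708 against 98.6 and 197 CPM, with 3 of the 6 tested genes, Klrd1, Prf1 and Gzma, called higher by edgeR. That list did not move as a whole: Eomes stood at 11.5 and 24.7 against 27.98 and 41.4 CPM, Cd8b1 at 3.12 and 2.95 against 2.83 and 3.30 CPM, and Ncr1 had 0 counts in all 4 libraries. The part of these cells in the level of the replication genes was not tested.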

How the data were processed

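RNA-seq of 4 libraries was deposited by the authors as raw whole-number counts for 52636 Ensembl gene IDs, with a gene length in bases. Per the submitters' processing notes, the tools were CASAVA, HISAT2 and featureCounts (versions not listed) and the build mm10. Strand setting, annotation release and treatment of multi-gene reads: not given in the sources used here. Groups follow the genotype label.

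Of 28039 genes with any count, 15503 passed filterByExpr and were tested two-sided with edgeR 4.0.16 (quasi-likelihood, TMM, R 4.3.3). Benjamini-Hochberg adjustment ran over these 15503, with calls at adjusted p under 0.05. The SE given with an edgeR log2 fold change is its absolute value divided by the square root of the F statistic. Libraries held 19057077 to 26579592 counts, so 1 count is 0.0385 to 0.0546 CPM, and each of the 50 genes had at least 113 counts per library. Replicates differed beyond sampling noise (chi-square per degree of freedom 23.5 and 29.9). TPM used the deposited length. Exon overlaps and shared 50-base stretches came from GENCODE M21 (GRCm38), where 48 of the 50 genes (all but Pola2 and Chaf1a) had the deposited coordinates, which are those printed.

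Members and gene lists were chosen with earlier results of these data known. Named with values in each library are up to 3 lowest-p genes of a class, every uncalled member, Pcna and 4 other replication genes of lowest p; other names were chosen after their values were seen. Alternatives were other scalings and filters, DESeq2 1.42.0, limma-voom (limma 3.58.1), a replicate block and leaving out each library. The edgeR step was tested on simulated data.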

Additional observations from a re-analysis of the deposited data

How the results depend on the processing

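Over the other scalings, filters and tests with all 4 libraries, 31 to 40 members were lower (all genes tested: 6.37% to 11%), and under all 12 alternatives 0 were higher. With 1 library left out, the number lower ran from 0 (E4BP4-cKO replicate 2 left out) to 32, with 6 when wild-type replicate 1 was left out; the cause was not tested. The median log2 fold change of the members tested ran from -0.962 to -0.674 in these reduced fits and from -0.891 to -0.786 in the others. Of the 32 called members, 23 kept their call when E4BP4-cKO replicate 1 was left out, as did 31 when wild-type replicate 2 was. Under scaling to total library size, Orc3 (-0.0729) and Orc4 (-0.0413) changed sign, and the median of all genes tested moved by -0.085. Orc4 ran from -0.0445 to 0.1368 when 1 library was left out, and was negative without E4BP4-cKO replicate 2 (-0.0372).

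For the 37 other replication genes, leaving out 1 library gave 0 to 22 lower and 0 to 1 higher. The number higher was 3 with no filter on low counts, 3 with DESeq2 and 2 under the replicate block. Under that block 33 members and 22 other replication genes were lower. Same-numbered libraries share only a number in the labels, and their deviations correlated at 0.0578 across genes. Fits with 1 library in a group assume that it varies like the other group.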

Other observations

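Replication and mitotic genes ordered the wild-type replicates alike and the E4BP4-cKO replicates differently. In the libraries labelled wild-type, replicate 1 was above replicate 2 in 46 of 50 replication genes and in 20 of 20 mitotic genes, with median log2 ratios of 0.30 and 0.48. In the libraries labelled E4BP4-cKO, replicate 1 was above replicate 2 in 39 of 50 replication genes but in 2 of 20 mitotic genes, with median log2 ratios of 0.13 and -0.12. Across all genes tested the share with replicate 1 above replicate 2 was 54.9% in the first pair and 49.7% in the second. Mki67, a gene of dividing cells, stood at 279 and 261 against 667 and 500.5 CPM. Each order rests on 1 library against 1 and has no replicate check.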
